A study of Mus musculus with 10 samples.

Results

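The genes described here are 33 macrophage and MHC class II genes, 28 of them expressed by tissue macrophages and microglia and 5 belonging to MHC class II antigen presentation. They were followed in libraries of endothelial cells purified from mouse gliomas. The list was chosen from measured values of the same libraries, namely their counts-per-million (CPM) in each library and the differences between deficient and control libraries in both arms of the study. Every such value given below is therefore a description, and none of it is independent evidence. All 33 symbols were found among the 23238 gene symbols that the count files share, and all 33 passed the filter on low counts that left 13040 genes for testing.

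The libraries came from 4 groups of mice on a C57BL/6 background that carried orthotopic tumours, grown from glioma cells (labelled GL26l) placed in the brain. Sox7 ECKO and Sox17 ECKO mice carried Sox7 fl/fl or Sox17 fl/fl alleles with the Cdh5(BAC)-CreERT2 driver, a tamoxifen-inducible recombinase expressed in endothelium, and experimental mice received tamoxifen at 20 mg/kg. Neither the driver nor the tamoxifen treatment of the Sox7 control and Sox17 control mice is stated, so effects of deletion and of treatment cannot be told apart. There were 2 Sox7 ECKO, 2 Sox7 control, 3 Sox17 ECKO and 3 Sox17 control libraries. A deficient and a control library of the same number form a set, and the arms have separate controls. Age and sex of the mice, the purification markers and the number of animals behind a library are not in the labels. p-values therefore measure the spread between libraries only, part of which may be technical.

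Macrophages and microglia are phagocytes of the myeloid lineage and are abundant in gliomas, where they sit close to blood vessels. They are known by receptors for the growth factors CSF1 and IL34, by secretion of the complement component C1q, by Fc receptors and lysosomal enzymes, and by the lineage factor PU.1. MHC class II molecules display peptides from the endosomal route to CD4+ T cells. They are made constitutively by dendritic cells, B cells and many macrophages, and other cells including endothelium can make them after interferon-gamma induces the coactivator CIITA.

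Depth ranged from 2082305 counts (Sox17 control 1) to 35068802 counts (Sox17 ECKO 2), so that 3 counts corresponded to 1.44 and 0.0855 CPM in these libraries. The deleted genes matched the labels in direction, with Sox7 at 4 and 5 counts in Sox7 ECKO 1 and 2 against 193 and 64 in Sox7 control 1 and 2. Sox17 was at 14, 38 and 54 counts in Sox17 ECKO 1, 2 and 3, against 384, 1140 and 1508 in Sox17 control 1, 2 and 3. The floxed exons are not in the labels, so a tag may lie outside the deleted part. The endothelial identity of the samples was also visible. The summed level of 14 pan-endothelial genes, among them Pecam1, Cdh5 and Kdr, lay between 10238 and 20108 CPM in every library. One library stood apart for the genes described here, Sox7 ECKO 1, and results that rest on it are given with and without it. It also had the lowest pan-endothelial sum, 10238 CPM against 17244 CPM in Sox7 control 1. Each of the 14 genes was lower in Sox7 ECKO 1 than in Sox7 control 1. Their ratios ran from 0.378 (Tek) to 0.692 (Cldn5). The sum was almost the same in Sox17 ECKO 1, at 10240 CPM, but its make-up differed. Cdh5 was at 214 CPM in Sox7 ECKO 1 and 527 CPM in Sox17 ECKO 1, and Egfl7 at 3477 and 2014 CPM. The genes described here summed to 482 CPM in Sox17 ECKO 1, against 28539 CPM in Sox7 ECKO 1. The ribosomal RNA precursor Rn45s took 28.8% of the counts of Sox7 ECKO 1 (95% Wilson interval 28.805 to 28.863), against 22.2% in Sox7 control 1 (22.173 to 22.226). The part of either measure in the levels below was not tested.

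All 33 genes had their highest level in Sox7 ECKO 1. The same library held the highest level of 13.4% of all 13040 genes tested. Summed over the 33 genes, the level was 28539 and 601 CPM in Sox7 ECKO 1 and 2, against 2087 and 1063 CPM in Sox7 control 1 and 2. In the Sox17 arm it was 482, 971 and 770.3 CPM in Sox17 ECKO 1, 2 and 3, against 465, 1488 and 602 CPM in Sox17 control 1, 2 and 3. Apart from Sox7 ECKO 1 the sums thus lay between 465 and 2087 CPM, with deficient and control libraries interspersed. As shares of all counts, the genes took 2.15% in Sox7 ECKO 1 (95% Wilson interval 2.14 to 2.16) and 0.183% in Sox7 control 1 (0.181 to 0.186). The lowest share was 0.0492% in Sox17 control 1 (0.0463 to 0.0523). These intervals cover counting error only. In bulk RNA such as this, more cells of a type and more RNA per cell cannot be told apart.

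**Figure D1:**
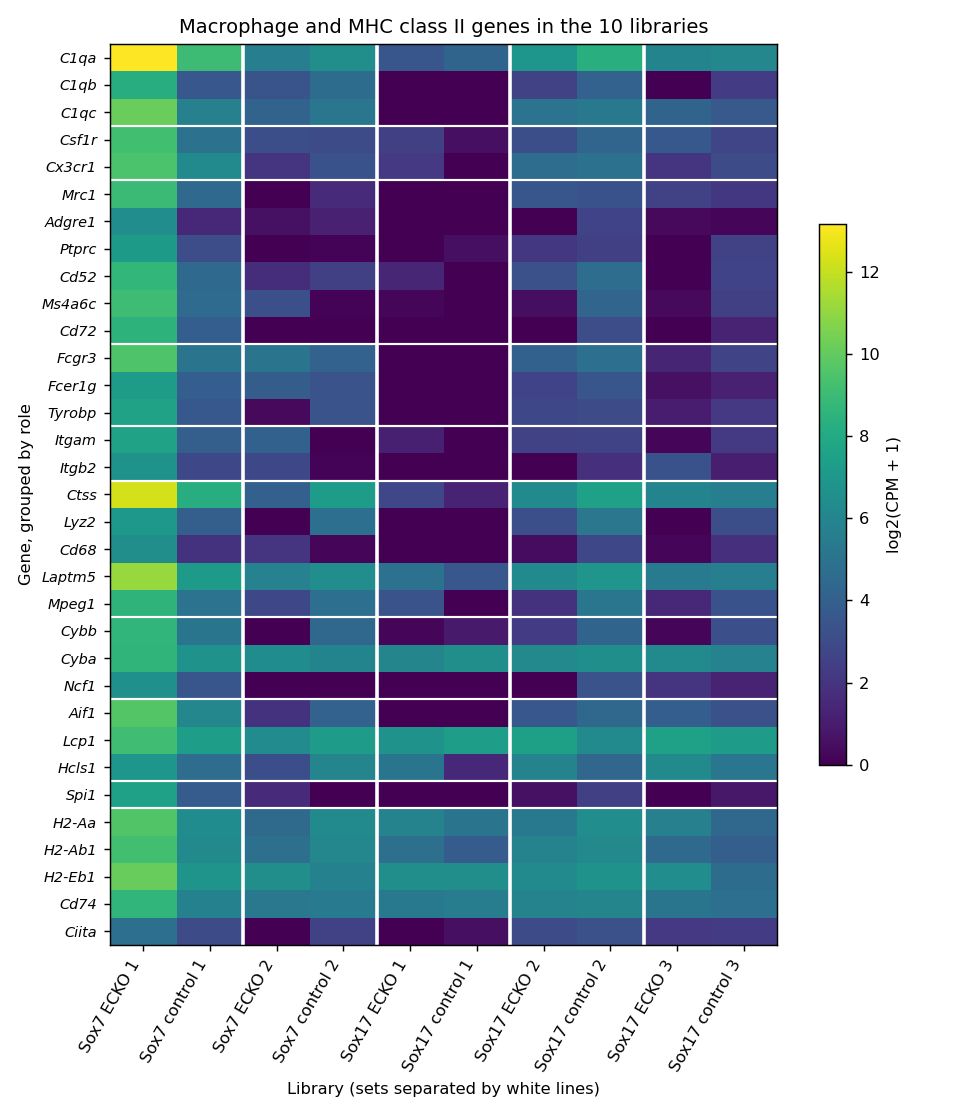
Levels of the 33 genes (rows, grouped by role) in the 10 libraries (columns, with each deficient library left of its control), as log2(CPM + 1). The column of Sox7 ECKO 1 holds the highest value of every row, and 16 and 19 of the 33 genes were at a count of 0 in Sox17 ECKO 1 and Sox17 control 1.

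Detection outside that library was uneven. In Sox7 ECKO 1 and Sox7 control 1, and also in Sox17 control 2 and Sox17 control 3, every one of the 33 genes had a count. Zero counts were found for 7 genes in Sox7 ECKO 2 and 4 in Sox7 control 2, for 16 in Sox17 ECKO 1 and 19 in Sox17 control 1, and for 4 in Sox17 ECKO 2 and 6 in Sox17 ECKO 3. Sox17 control 1 is the shallowest library, and a count of 0 there allows a level of up to 1.36 CPM, which corresponds to 3 counts. Counts above 0 in all 10 libraries were found for 11 genes. These were C1qa, Csf1r, Ctss, Laptm5, Cyba, Lcp1, Hcls1, H2-Aa, H2-Ab1, H2-Eb1 and Cd74. The second highest level belonged to Sox7 control 1 for 19 genes and to Sox17 control 2 for 8. Set against the highest of the other 9 libraries, Sox7 ECKO 1 was 1.51 times as high for Hcls1 and 25.8 times as high for Cd72, with a median of 11.9 over the 33 genes.

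The 3 chains of C1q, the recognition unit of the classical complement pathway, were between 17.9 and 26.6 times as high in Sox7 ECKO 1 as in Sox7 control 1. C1qa (GRCm38 chromosome 4, 136895917 to 136898803, minus strand, GENCODE vM21) was at 9172 and 48.8 CPM in Sox7 ECKO 1 and 2, against 512 and 91.1 CPM in Sox7 control 1 and 2. In the Sox17 arm C1qa was at 10.3, 120.3 and 61.4 CPM in Sox17 ECKO 1, 2 and 3, against 17.7, 306 and 66.2 CPM in Sox17 control 1, 2 and 3. Sox7 ECKO 1 was thus far above all others while Sox7 ECKO 2 was below both Sox7 controls, and the Sox17 groups overlapped, with the deficient library the lower one in each set. The mean over Sox7 ECKO libraries, 4610.4 ± 6451 CPM (SD, n = 2), had an SD larger than itself, beside 302 ± 298 CPM in Sox7 controls (n = 2). C1qb (136880129 to 136886187) was at 290.1 and 9.56 CPM in Sox7 ECKO 1 and 2, against 10.9 and 24.2 CPM in Sox7 control 1 and 2. It had no count in either library of Sox17 set 1. C1qc (136889804 to 136893065) was at 1122 and 17.3 CPM in Sox7 ECKO 1 and 2, against 51.4 and 34.6 CPM in Sox7 control 1 and 2. All 3 genes lie next to each other on the minus strand, and the ratio in set 1 of the Sox7 arm was 17.9 for C1qa, 21.8 for C1qc and 26.6 for C1qb.

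Promoters are shown for C1qb and C1qc because these neighbouring genes went the same way in both Sox7 sets. In Sox17 set 3 they parted, with differences in log2(CPM + 1) of −2.27 for C1qb and 0.55 for C1qc. RefSeq promoter windows (GRCm38.p6, 250 bases before to 50 after the gene start) were found for 23 of the 33 genes. C1qb is the window chr4:136886151-136886450 and C1qc is chr4:136892865-136893164, both on the minus strand and read 5′ to 3′. Capitals mark the core GAGGAA bound by PU.1, or its reverse complement, as found by letter matching on both strands.
C1qb: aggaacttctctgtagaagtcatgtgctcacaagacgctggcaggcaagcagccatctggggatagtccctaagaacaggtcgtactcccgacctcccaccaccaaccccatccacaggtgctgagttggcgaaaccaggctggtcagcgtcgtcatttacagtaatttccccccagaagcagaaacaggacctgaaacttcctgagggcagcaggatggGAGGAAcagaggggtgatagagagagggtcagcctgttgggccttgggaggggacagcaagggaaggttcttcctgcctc
C1qc: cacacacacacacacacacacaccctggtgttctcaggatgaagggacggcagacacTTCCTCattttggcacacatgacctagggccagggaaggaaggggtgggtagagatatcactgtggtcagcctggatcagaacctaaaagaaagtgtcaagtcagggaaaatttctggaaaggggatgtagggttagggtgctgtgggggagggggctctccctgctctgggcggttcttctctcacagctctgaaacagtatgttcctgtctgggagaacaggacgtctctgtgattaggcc
The match begins 30 bases before the start in C1qb and 193 bases before it, on the opposite strand, in C1qc. GAGGAA was present in the windows of 12 of the 23 matched genes, against 31.3% of the 27025 genes with a window. The longer GAGGAAGT, which contains that core, was in the windows of 3 genes (C1qc, Cd72 and Ctss) against 3.69% of all genes with a window. A match is a run of letters, not a measured binding site. The motifs were chosen with the windows in view.

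Surface receptors of the lineage followed the same division between libraries. Csf1r, the receptor for CSF1 and IL34, was at 587 and 7.83 CPM in Sox7 ECKO 1 and 2, against 28.7 and 7.01 CPM in Sox7 control 1 and 2. Its level was 4.68, 7.87 and 11.4 CPM in Sox17 ECKO 1, 2 and 3, against 0.454, 18.6 and 5.70 CPM in Sox17 control 1, 2 and 3. Outside Sox7 ECKO 1 its level was low and the groups overlapped in both arms. Cx3cr1, the receptor for fractalkine and abundant on microglia, was at 703 and 3.05 CPM in Sox7 ECKO 1 and 2, against 74.3 and 8.94 CPM in Sox7 control 1 and 2. Of the other surface molecules, Adgre1 (the F4/80 antigen) had the largest ratio in Sox7 set 1, at 49.1. It rests on a level of 88.2 CPM in Sox7 ECKO 1 against only 15 counts, or 1.80 CPM, in Sox7 control 1. Mrc1, the mannose receptor, was at 499 and 0 CPM in Sox7 ECKO 1 and 2, against 21.6 and 2.12 CPM in Sox7 control 1 and 2. Ptprc, the pan-leukocyte antigen CD45, was at 141 and 0 CPM in Sox7 ECKO 1 and 2, against 7.78 and 0.0922 CPM in Sox7 control 1 and 2. Both were thus absent from the counts of the other Sox7 ECKO library.

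Cd52 (a small leukocyte glycoprotein), Ms4a6c and Cd72 differed among themselves outside Sox7 set 1. Cd52 was at 422 CPM in Sox7 ECKO 1 and at no more than 25.4 CPM (Sox17 control 2) elsewhere. Ms4a6c, a member of the membrane-spanning Ms4a family, was at 531 and 8.23 CPM in Sox7 ECKO 1 and 2, against 23.0 and 0.0922 CPM in Sox7 control 1 and 2. Ms4a6c was at 0.138, 0.395 and 0.248 CPM in Sox17 ECKO 1, 2 and 3, against 0, 18.7 and 4.64 CPM in Sox17 control 1, 2 and 3. Its deficient library was the higher one in both Sox7 sets, in set 2 with 62 counts against 1. In the Sox17 arm the deficient library was higher in set 1 alone, which rests on 1 count against 0. Cd72, an inhibitory lectin best known from B cells, was at 367 and 0 CPM in Sox7 ECKO 1 and 2, against 14.2 and 0 CPM in Sox7 control 1 and 2. It had no count in any Sox17 ECKO library, against 118 counts summed over the Sox17 controls, 95 of them in control 2 and 23 in control 3. With reads pooled over each group and a floor of 3 counts, the pooled Sox17 ECKO level of Cd72 was at least 64.4-fold lower. This bound does not hold for the single sets. Sox17 control 1 was at 0 as well, so set 1 gives no bound. In set 3 the control was at 1.42 CPM, and 3 counts in Sox17 ECKO 3 correspond to 0.367 CPM.

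Fc receptor and integrin genes were higher in Sox7 ECKO 1 as well, and less alike in set 2. Fcgr3, an activating receptor for immunoglobulin G, was at 733 and 33.05 CPM in Sox7 ECKO 1 and 2, against 32.4 and 16.5 CPM in Sox7 control 1 and 2. Both Sox7 ECKO libraries were above both controls, set 2 by a much smaller margin. The adaptor genes Fcer1g and Tyrobp (DAP12) were 10.3 and 16.7 times as high in Sox7 ECKO 1 as in Sox7 control 1. In set 2 they parted, with Tyrobp at 0.265 CPM in Sox7 ECKO 2 against 9.40 CPM in Sox7 control 2 and Fcer1g at 13.8 CPM against 9.31 CPM. Itgam and Itgb2 encode the alpha and beta chains of the integrin Mac-1. Itgam was at 189 and 16.1 CPM in Sox7 ECKO 1 and 2, against 15.0 and 0 CPM in Sox7 control 1 and 2. Itgb2 was at 107 and 6.24 CPM in Sox7 ECKO 1 and 2, against 6.23 and 0.0922 CPM in Sox7 control 1 and 2. Neither group pair overlapped for these integrin genes, although Sox7 ECKO 2 exceeded Sox7 control 1 only narrowly.

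The 5 lysosomal and antimicrobial genes were 8.57 to 31.2 times as high in Sox7 ECKO 1 as in Sox7 control 1. Ctss, the protease cathepsin S that trims the invariant chain of MHC class II, was at 5043 and 15.7 CPM in Sox7 ECKO 1 and 2, against 294 and 151 CPM in Sox7 control 1 and 2. Ctss was at 5.92, 77.5 and 60.7 CPM in Sox17 ECKO 1, 2 and 3, against 1.36, 187 and 48.8 CPM in Sox17 control 1, 2 and 3. Its order between deficient and control thus changed from set to set. Laptm5, a lysosomal membrane protein of blood cells, was at 2207 and 55.9 CPM in Sox7 ECKO 1 and 2, against 143 and 86.7 CPM in Sox7 control 1 and 2. Cd68, a glycoprotein of macrophage lysosomes, was at 89.8 and 2.92 CPM in Sox7 ECKO 1 and 2, against 2.87 and 0.184 CPM in Sox7 control 1 and 2. Cd68 was at 0, 0.367 and 0.124 CPM in Sox17 ECKO 1, 2 and 3, against 0, 6.16 and 2.54 CPM in Sox17 control 1, 2 and 3. It was low everywhere except Sox7 ECKO 1, and Sox7 ECKO 2 lay above Sox7 control 1 by a few hundredths of a CPM. Lyz2 (lysozyme) and Mpeg1 (the pore-forming perforin-2) were 8.57 and 12.01 times as high in Sox7 ECKO 1 as in Sox7 control 1. Both were lower in ECKO than in control in Sox7 set 2.

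The phagocyte oxidase and cytoskeletal genes include members with counts in all libraries. Cyba, the membrane subunit also present outside the myeloid lineage, was at 390.25 and 83.3 CPM in Sox7 ECKO 1 and 2, against 102 and 59.8 CPM in Sox7 control 1 and 2. Its other 6 libraries ran from 56.8 to 93.6 CPM. Its partner Cybb, the catalytic subunit of phagocytes, was by contrast at 407 and 0 CPM in Sox7 ECKO 1 and 2, against 34.1 and 20.9 CPM in Sox7 control 1 and 2. Ncf1, a cytosolic oxidase subunit, had no count in 5 libraries and 96.1 CPM in Sox7 ECKO 1. Lcp1, the actin-bundling L-plastin, was at 551 and 81.5 CPM in Sox7 ECKO 1 and 2, against 167 and 155 CPM in Sox7 control 1 and 2. It had the smallest ratio of the 33 genes in Sox7 set 1, at 3.29. Hcls1, a cortactin-like protein of blood cells, was at 33.8, 58.8 and 78.3 CPM in Sox17 ECKO 1, 2 and 3, against 1.82, 19.0 and 34.4 CPM in Sox17 control 1, 2 and 3. Hcls1 was the only one of the 33 genes with the deficient library higher in all 3 Sox17 sets, and its level in Sox17 control 1 rests on 4 counts. The share of all genes with this order was not determined. Aif1, the actin-binding protein IBA1, was at 806 and 2.79 CPM in Sox7 ECKO 1 and 2, against 68.2 and 16.9 CPM in Sox7 control 1 and 2. Spi1, which encodes PU.1, was at 183 and 1.99 CPM in Sox7 ECKO 1 and 2, against 13.3 and 0 CPM in Sox7 control 1 and 2. In the Sox17 arm Spi1 did not exceed 4.66 CPM.

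The 5 MHC class II genes had a flatter profile. H2-Aa encodes the alpha chain and H2-Ab1 the beta chain of the molecule I-A, H2-Eb1 encodes the beta chain of I-E, Cd74 the invariant chain and Ciita the coactivator of the group. H2-Aa (chromosome 17, 34282744 to 34287823, minus strand) was at 756 and 22.0 CPM in Sox7 ECKO 1 and 2, against 84.5 and 76.1 CPM in Sox7 control 1 and 2. In the Sox17 arm it was at 58.3, 39.4 and 52.2 CPM in Sox17 ECKO 1, 2 and 3, against 32.2, 87.5 and 20.7 CPM in Sox17 control 1, 2 and 3. The Sox17 groups overlapped and no library was without counts. H2-Ab1 (34257689 to 34269419, plus strand) was at 579.9 and 27.9 CPM in Sox7 ECKO 1 and 2, against 76.5 and 68.1 CPM in Sox7 control 1 and 2. H2-Eb1 (34305867 to 34316674, plus strand) was at 1092 and 88.3 CPM in Sox7 ECKO 1 and 2, against 111 and 54.1 CPM in Sox7 control 1 and 2. H2-Eb1 was at 91.1, 74.8 and 86.2 CPM in Sox17 ECKO 1, 2 and 3, against 88.5, 103 and 23.8 CPM in Sox17 control 1, 2 and 3. Apart from Sox7 ECKO 1, H2-Eb1 thus stayed between 23.8 and 111 CPM. Cd74 was at 400.1 and 38.0 CPM in Sox7 ECKO 1 and 2, against 54.6 and 43.7 CPM in Sox7 control 1 and 2, and between 27.2 and 62.2 CPM in the Sox17 arm. Ciita was low, at 26.8 and 0 CPM in Sox7 ECKO 1 and 2, against 7.06 and 4.89 CPM in Sox7 control 1 and 2. Genes of the H2 family are similar to each other, as are Fcgr3, Lyz2, Ncf1 and Ms4a6c to related loci, and their counts are uncertain where reads could have been shared or split.

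Promoters are shown for H2-Aa and H2-Eb1, and for H2-DMb1 of the same pathway, because these genes share a known arrangement of X and Y boxes read by RFX factors, NF-Y and CIITA. H2-Aa is the window chr17:34287774-34288073 on the minus strand, H2-Eb1 is chr17:34305617-34305916 and H2-DMb1 is chr17:34152941-34153240, both on the plus strand (RefSeq, GRCm38.p6, 5′ to 3′). Capitals mark the Y box CTGATTGG or its core GATTGG, and the X box letters AACTGATG, on the printed strand. The H2-Eb1 window also holds the core on the opposite strand, left in lower case.
H2-Aa: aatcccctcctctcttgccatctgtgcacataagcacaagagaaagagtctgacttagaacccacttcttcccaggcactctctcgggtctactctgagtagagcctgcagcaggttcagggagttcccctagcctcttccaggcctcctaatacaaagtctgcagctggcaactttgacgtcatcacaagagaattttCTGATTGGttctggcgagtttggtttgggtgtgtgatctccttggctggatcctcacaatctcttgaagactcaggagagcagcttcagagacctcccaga
H2-Eb1: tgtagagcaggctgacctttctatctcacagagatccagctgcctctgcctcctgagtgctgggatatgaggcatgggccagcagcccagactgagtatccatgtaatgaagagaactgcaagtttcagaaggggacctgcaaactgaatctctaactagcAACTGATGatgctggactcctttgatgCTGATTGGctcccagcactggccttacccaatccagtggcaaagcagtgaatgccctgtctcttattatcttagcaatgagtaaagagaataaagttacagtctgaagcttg
H2-DMb1: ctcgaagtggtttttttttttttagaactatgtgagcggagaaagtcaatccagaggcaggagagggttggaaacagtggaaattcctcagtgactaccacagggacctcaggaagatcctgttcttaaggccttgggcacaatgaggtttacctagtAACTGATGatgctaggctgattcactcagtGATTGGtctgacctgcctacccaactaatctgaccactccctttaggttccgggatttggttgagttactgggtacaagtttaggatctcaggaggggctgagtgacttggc
The Y box begins 51 bases before the start in H2-Aa and 62 bases before it in H2-Eb1, and the core begins 62 bases before it in H2-DMb1. The X box letters begin 89 bases before the start in H2-Eb1 and 92 in H2-DMb1. CTGATTGG, which contains the core, was in the windows of 4.70% of the 27025 genes on either strand, GATTGG in those of 18.2% and AACTGATG in those of 0.907%. Among the 23 matched genes the core was found for Cd68, H2-Aa and H2-Eb1. The exact X box letters were not found in the H2-Aa window, which says only that these letters are not in it.

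The balance between both parts of the list changed with the library. Summed over the 5 MHC class II genes, the level was 2856 and 176 CPM in Sox7 ECKO 1 and 2, against 334 and 247 CPM in Sox7 control 1 and 2. It was 216, 239 and 197 CPM in Sox17 ECKO 1, 2 and 3, against 179, 334 and 90.3 CPM in Sox17 control 1, 2 and 3. Summed C1q was 10584 and 75.6 CPM in Sox7 ECKO 1 and 2, against 574 and 149.8 CPM in Sox7 control 1 and 2. It was 10.3, 157 and 79.0 CPM in Sox17 ECKO 1, 2 and 3, against 17.7, 362 and 81.7 CPM in Sox17 control 1, 2 and 3. The MHC class II sum was therefore 0.270 times the C1q sum in Sox7 ECKO 1 and 0.581 times in Sox7 control 1, and 20.9 and 10.1 times in Sox17 ECKO 1 and Sox17 control 1. In both libraries of Sox17 set 1 the MHC class II genes had a summed level within the range of the other libraries while C1qb and C1qc had no count. Whether endothelial cells themselves gave these MHC class II transcripts was not tested.

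**Figure D2:**
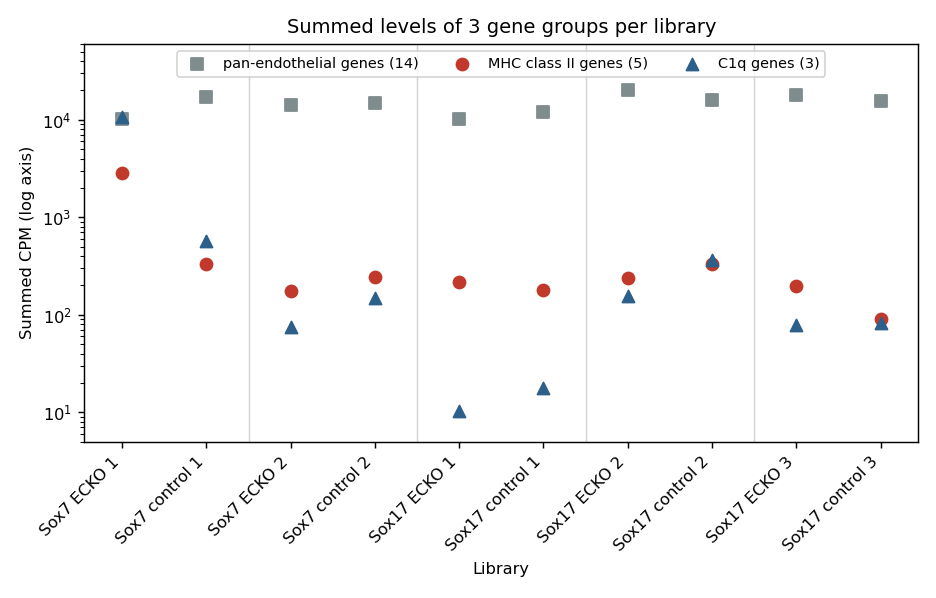
Summed CPM (log axis) of 14 pan-endothelial, 5 MHC class II and 3 C1q genes in each of the 10 libraries, each deficient library left of its control. C1q ranged from 10.3 to 10584 CPM, MHC class II from 90.3 to 2856 CPM and the pan-endothelial genes from 10238 to 20108 CPM.

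Within set 1 of the Sox7 arm the ratio of ECKO to control differed by role. Over the 33 genes it ran from 3.29 (Lcp1) to 49.1 (Adgre1), with a median of 13.8. It was at least 10 for 22 genes. Over all genes with more than 3 counts in both libraries, 2.21% (263 of 11884) exceeded this ratio. The median was 21.8 for C1q, 23.1 for the 6 other surface molecules, 16.7 for the Fc receptor and its adaptors and 15.4 for the lysosomal genes. It was 7.58 for MHC class II (3.80 for Ciita to 9.82 for H2-Eb1), 9.23 for the oxidase genes and 4.78 for the cytoskeletal genes. None of the 5 MHC class II genes reached 10, against 22 of the 28 macrophage genes. The genes with the smallest ratios, Lcp1, Ciita, Cyba and Hcls1, were at 167, 7.06, 102 and 24.7 CPM in Sox7 control 1. With 1 library on each side these ratios have no replicate check.

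**Figure D3:**
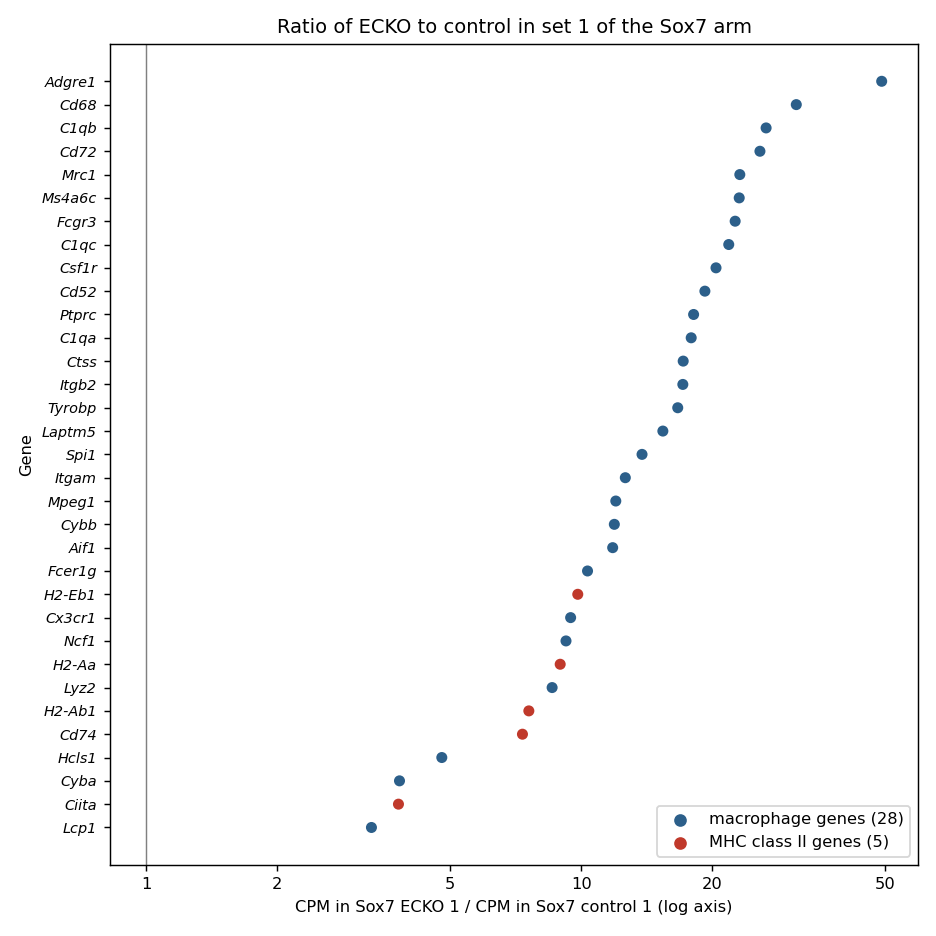
Ratio of CPM in Sox7 ECKO 1 to CPM in Sox7 control 1 (log axis) for each of the 33 genes, sorted, with macrophage and MHC class II genes in different colours. Every gene lies above 1, from 3.29 for Lcp1 to 49.1 for Adgre1, and the MHC class II genes lie between 3.80 and 9.82.

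The second Sox7 set did not repeat the first. On the log2(CPM + 1) scale all 33 genes were higher in ECKO in set 1, with a median difference of 3.69, and all 33 by more than 1. The same was true of 51.4% and 14.9% of all genes, and 10.6% of all genes but 0 of the 33 were lower by more than 1. In set 2 only 10 of the 33 were higher (43.5% of all genes) and 21 were lower, with a median difference of −0.81. By more than 1, 5 were higher (19.3% of all genes) and 13 were lower (20.6%). The 10 higher in both sets were Csf1r, Ms4a6c, Fcgr3, Fcer1g, Itgam, Itgb2, Cd68, Cyba, Spi1 and H2-Eb1. A further 21, among them C1qa, C1qb, C1qc, Ctss, Aif1, Lcp1, H2-Aa, H2-Ab1 and Cd74, were higher in set 1 and lower in set 2, and Cd72 and Ncf1 had no count in set 2. The differences in set 2 ran from −4.80 (Lyz2) to 4.09 (Itgam).

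The Sox17 sets did not share a direction either. In set 1, 12 genes were higher in ECKO (53% of all genes), 7 were lower and 14 were equal because both libraries had no count. By more than 1, 9 were higher (31%) and 0 lower (16.1%). In set 2, 3 were higher (46.7%) and 30 were lower, with a median difference of −0.89. By more than 1, 2 were higher (14.1%) and 16 lower (19.8%). In set 3, 15 were higher (43.5%) and 18 lower, with a median of −0.15. By more than 1, 4 were higher (9.55%) and 12 lower (19.2%). C1qa, Ptprc, Cybb and Ciita were lower in ECKO in all 3 sets. In set 1 this rests on 0 against 1 count for Ptprc and Ciita and 1 against 2 counts for Cybb. The order of these genes there is therefore uncertain. The share of all genes lower in all 3 sets was not determined, so this number of genes cannot be set against it. In set 3 the parts of the list went different ways, with a median of −0.74 for the 28 macrophage genes and 0.55 for the 5 MHC class II genes.

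**Figure D4:**
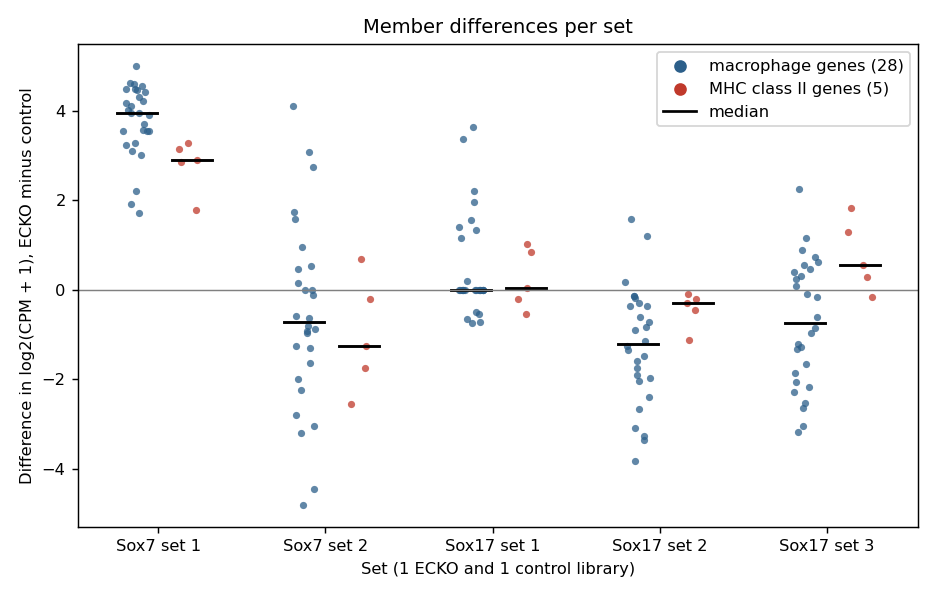
Difference in log2(CPM + 1), ECKO minus control, of each gene in each of the 5 sets, with macrophage and MHC class II genes in separate columns and black lines at their medians. All 33 points lie above 0 in Sox7 set 1, while in Sox7 set 2 and in the Sox17 sets points lie on both sides of 0.

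The spread of the genes around their common shift was smallest in Sox7 set 1. Among genes with more than 3 counts in both libraries of a set, the SD of the log2 ratio was 0.91 in Sox7 set 1 (33 genes) and 1.21 in Sox7 set 2 (20 genes). It was 1.57 in Sox17 set 1 (9 genes), 1.52 in set 2 (29 genes) and 1.28 in set 3 (22 genes). Levels were lower in the other sets, and the part of counting error in these SDs was not tested.

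The comparison of Sox7 ECKO with Sox7 control asked whether these transcripts differ when both libraries of each group enter. With edgeR's quasi-likelihood test on all genes, 0 of 13040 genes (0%) and 0 of the 33 passed an adjusted p of 0.05, higher or lower, and the adjusted p was 1 for each of the 33. At an unadjusted p under 0.05 there were 4 of the 33 (Cd68, Cyba, H2-Eb1 and Cd74), against 1.5% of all genes. All 33 had a fitted fold change above 0, as did 51.9% of all genes, and the median log2 fold change was 3.25 against 0.037 over all genes. Every ECKO library was above every control library for 4 of the 33 (Fcgr3, Itgam, Itgb2 and Cd68), against 12.7% of all genes. For 0 of the 33 was every ECKO library below every control library, against 12.8%. The log2 fold change was 3.93 (SE 2.48) for C1qa, 4.06 (SE 1.96) for Csf1r and 4.92 (SE 2.21) for Cd68. It was 0.97 (SE 0.66) for Lcp1 and 1.55 (SE 0.61) for Cyba. Among MHC class II genes it was 2.84 (SE 0.98) for H2-Eb1 and 2.16 (SE 0.78) for Cd74. With the set number as a block, Ms4a6c was the 1 gene of 13040 that passed (0.00767%; log2 5.01, edgeR adjusted p = 0.0247), beside 4.55 (SE 2.68, adjusted p = 1) without it.

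These fitted values rest on Sox7 ECKO 1. Without that library, 26 of the 33 had a fitted fold change below 0 and 7 above it, and the median was −1.77. C1qa was then at −2.66, Csf1r at −1.22, Lcp1 at −1.01, Ms4a6c at −0.52 and Cd74 at −0.40. Cd68 was at 0.90, Cyba at 0.01 and H2-Eb1 at 0.06. In that fit the remaining Sox7 ECKO library was assumed to vary like those of the other groups, and 0 of the 33 passed. Without a filter on low counts 15 of the 33 passed with all libraries, among 58 of 17148 genes tested (0.338%), C1qa, Csf1r and H2-Eb1 among them, with fold changes close to those above (3.90, 4.03 and 2.81 on the log2 scale).

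The comparison of Sox17 ECKO with Sox17 control likewise gave 0 of 13040 genes (0%) and 0 of the 33 past the threshold, higher or lower, with an edgeR adjusted p of 1 for each of the 33. At an unadjusted p under 0.05 there were 2 of the 33 (Adgre1 and Cd68), against 3.52% of all genes. With Sox17 libraries alone, 28 of the 33 passed the filter on low counts. Adgre1, Cd68, Cd72, Ms4a6c and Spi1 did not, so their values in this comparison rest on few counts. Over those 28 genes, fitted on Sox17 libraries alone, the median log2 fold change was −0.27. A fitted fold change above 0 was found for 7 of the 33 and for 52.8% of all genes. The median log2 fold change was −0.59 against 0.047 over all genes, with −0.95 for the 28 macrophage genes and 0.09 for the 5 MHC class II genes. Libraries of the groups overlapped for all 33, while over all genes every ECKO library was above every control library for 4.13% and below for 4.23%. C1qa was at −1.02 (SE 1.82), Csf1r at −0.12 (SE 1.44), Cd68 at −3.92 (SE 1.75) and Ms4a6c at −4.75 (SE 2.41). Lcp1 (0.23, SE 0.54), Cyba (−0.16, SE 0.48), H2-Eb1 (0.23, SE 0.75) and Cd74 (−0.04, SE 0.62) had differences smaller than their SE. With the set number as a block 6 of 13040 genes passed (0.046%), of which 2 of the 33 passed as lower, Ms4a6c (log2 −4.68, edgeR adjusted p = 0.023) and Cd72 (edgeR adjusted p = 0.00767), and the Sox17 ECKO level of Cd72 was 0 in each library. Without a filter 3 of the 33 passed, among 30 of 17148 genes (0.175%). Without Sox17 control 2, in which 8 of the 33 genes had the highest level after Sox7 ECKO 1, 21 of the 33 were above 0 and the median was 0.27. Whether the arms differ was not tested.

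Other genes of the same pathways were described from 22 further lists, on which no gene passed in either comparison. Among 12 other genes of the MHC class II pathway, 9 were tested and 8 were highest in Sox7 ECKO 1. H2-DMb1, a chain of the peptide-loading molecule, was at 1227 and 81.2 CPM in Sox7 ECKO 1 and 2, against 177 and 48.4 CPM in Sox7 control 1 and 2. Lgmn, a lysosomal protease, was at 1593 and 119 CPM in Sox7 ECKO 1 and 2, against 159 and 223 CPM in Sox7 control 1 and 2. Rfx5, a subunit of the X box factor RFX, was at 33.8 and 13.01 CPM in Sox7 ECKO 1 and 2, against 42.3 and 30.3 CPM in Sox7 control 1 and 2. The peptide-loading and protease genes thus had their high level in the same library as the MHC class II genes, and the RFX subunit did not. Of 7 other complement genes 6 were highest in Sox7 ECKO 1, as were all 3 other Fc receptor genes (Fcgr1, Fcgr2b and Fcgr4). Of 11 lysosomal genes, which many cell types express, 11 were highest there, and their summed level was 15962 and 3091 CPM in Sox7 ECKO 1 and 2, against 3088 and 3331 CPM in Sox7 control 1 and 2. For 7 growth factor genes of the lineage and their partners the sum was 801 CPM in Sox7 ECKO 1 against 841 CPM in Sox7 control 1, with Csf1 at 91.6 and 88.8 CPM in Sox7 ECKO 1 and 2, against 93.0 and 140.5 CPM in Sox7 control 1 and 2. Of these 7, the receptor genes Csf2ra (26.8 against 3.95 CPM in set 1), Csf2rb (224 against 48.0 CPM) and Cd200r1 (6.21 against 0.239 CPM) were highest in Sox7 ECKO 1.

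Markers of other cell types separated in the same library. All 11 microglia markers were highest in Sox7 ECKO 1, with a summed level of 995 CPM against 57.7 CPM in Sox7 control 1 and 14.3 to 57.7 CPM over the other 9 libraries. Among them Trem2, a lipid-sensing receptor, was at 174 CPM against 8.86 CPM, and Tmem119 at 29.9 CPM against 2.63 CPM. P2ry12 was at 11.4 CPM against 1.08 CPM and had no count in 7 libraries. Of 10 dendritic cell markers 6 were highest in Sox7 ECKO 1, with a sum of 769 against 174 CPM and 64.7 to 197 CPM over the other 9. Irf8 (421 CPM) and Itgax (271 CPM) made up most of the 769 CPM. Clec9a was at 2.45 CPM and Xcr1 at 0.433 CPM. Zbtb46 was lower than in Sox7 control 1 (7.65 against 11.4 CPM), and Flt3 and Cd209a had no count in Sox7 ECKO 1. Of 10 perivascular macrophage markers 6 were highest there, with a sum of 336 against 141 CPM and 84.9 to 197 CPM over the other 9. Stab1 (123 against 119 CPM) made up most of that sum in Sox7 control 1 and was at 67.2 CPM or more in every library. Ms4a7 was at 105 against 6.46 CPM and Clec10a at 43.4 against 4.79 CPM. Lyve1, Pf4, F13a1 and Stab1 were not highest in Sox7 ECKO 1. Of 8 monocyte markers 3 were highest there, and the sum was 869 against 952 CPM, within the range of the other 9 (386 to 1016 CPM). Ccr2, the monocyte chemokine receptor, was at 38.8 against 0.359 CPM, while Ly6c2 was at 85.7 against 82.4 CPM. Chil3, also on the monocyte list, was at 311 against 5.63 CPM. Nr4a1 of the same list was at 301 against 781 CPM, and at 227 CPM or more in every library. It made up most of the monocyte sum in Sox7 control 1. The summed microglia markers thus lay above all other libraries in Sox7 ECKO 1. The monocyte sum did not, but it depends strongly on Nr4a1 and does not separate these cell types. The part of each cell type was not tested.

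Lymphocyte and granulocyte markers were low in level, although the sums for T and NK cells and for B cells were also highest in Sox7 ECKO 1. The 11 T and NK cell markers summed to 38.2 CPM in Sox7 ECKO 1 and 11.97 CPM in Sox7 control 1, and to between 0.265 and 17.7 CPM over the other 9 libraries. The 7 B cell markers summed to 36.9 CPM in Sox7 ECKO 1 against 4.79 CPM in Sox7 control 1, the highest of the other 9, with Cd79a, Ms4a1 and Pax5 at a count of 0 in every library. The 7 neutrophil markers in the files summed to 34.5 CPM against 43.6 CPM. Of 5 mast cell markers, Cpa3, Mcpt4, Ms4a2 and Tpsb2 had no count in any library. The defining markers of B cells and mast cells were therefore not detected at this depth. MHC class I genes, which nearly all cells express, summed to 13503 CPM in Sox7 ECKO 1 against 10412 CPM in Sox7 control 1, within the range of the other 9 (7661 to 21701 CPM). Interferon-gamma response genes summed to 2101 against 1817 CPM, within 1367 to 2296 CPM, but the 10 genes of this list differed. Socs1 (327 against 72.3 CPM), Ifngr1 (206 against 81.3 CPM) and Irf1 (692 against 654 CPM) were highest in Sox7 ECKO 1. Gbp2, Gbp3, Cxcl9 and Igtp were lower there than in Sox7 control 1. Sums of pericyte (293 against 378 CPM), oligodendrocyte (30.6 against 4.43 CPM), neuron (24.2 against 24.7 CPM) and erythroid markers (176 against 225 CPM) in Sox7 ECKO 1 lay within the range of the other 9 libraries. The sum of astrocyte markers was 137 CPM, the lowest of the 10 libraries, against 145 CPM in Sox7 control 1.

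**Figure D5:**
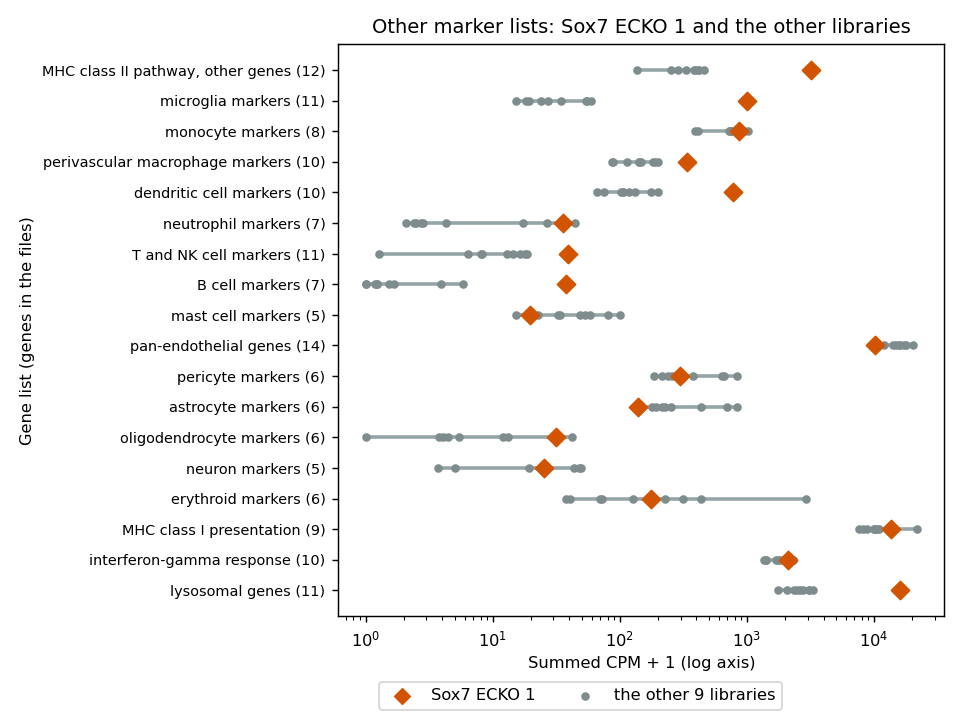
Summed CPM + 1 (log axis) of 18 gene lists, with orange diamonds for Sox7 ECKO 1, grey points for the other 9 libraries and grey lines for their range. Sox7 ECKO 1 lies above the range for microglia (995 against at most 57.7 CPM), for dendritic cell (769 against at most 197 CPM), perivascular macrophage (336 against at most 197 CPM), T and NK cell (38.2 against at most 17.7 CPM) and B cell markers (36.9 against at most 4.79 CPM), and for lysosomal and other MHC class II pathway genes. It lies at the lower end for pan-endothelial genes and below the range for astrocyte markers (137 against at least 145 CPM).

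Genes outside the list with the most similar profile were found by the root mean square distance between log2(CPM + 1) values over the 10 libraries, each gene centred on its mean, and the median profile of the 33. The closest were Bcl2a1d (0.53) and Bcl2a1a (0.57), near-identical survival genes whose reads may have been shared. Klra2 (0.62), the microglial transcription factor gene Sall1 (0.63), Fam105a (0.64) and F7, coagulation factor VII (0.66), followed, and Il2rb (0.67), Adcy7 (0.67), F10 (0.68) and Fgd2 (0.70) completed the 10. F7 was at 165 and 0 CPM in Sox7 ECKO 1 and 2, against 3.95 and 0 CPM in Sox7 control 1 and 2. Over the 33 genes the distance ran from 0.29 (Laptm5) to 1.69 (Hcls1) with a median of 1.04, and over the 13007 other genes its median was 2.09. Csf1r (0.52) and Tyrobp (0.62) lay closest after Laptm5. Lcp1 (1.603) and Cyba (1.42) were, with Hcls1, the farthest.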

How the data were processed

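RNA of purified glioma endothelial cells was measured with the Lexogen QuantSeq kit from 500 ng of total RNA, per the labels' protocols. This kit reads a tag near the transcript's 3′ end, so a level does not grow with transcript length. Per the file contents, the deposited values are raw counts, 1 whole number for each gene symbol and library. Bowtie2, edgeR and mm10 are named per the submitters' processing notes, with no counting tool, annotation or strand setting given in the sources used here. The symbols beginning with Mir that the Sox7 files lack (1183) were left out, and repeated lines of a symbol were summed.

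Tests used edgeR 4.0.16 in R 4.3.3 (quasi-likelihood F-test, robust, Benjamini-Hochberg over 13040 genes kept by filterByExpr, threshold 0.05), with 1 mean per group over all 10 libraries (6 residual degrees of freedom) and TMM scaling (trimmed mean of M-values). CPM is relative to TMM-scaled library sizes, and differences per set use log2(CPM + 1). The common biological coefficient of variation was 0.989. DESeq2 1.42.0, limma 3.58.1 (voom), RLE scaling, no filter, each arm alone, no Rn45s row, the set number as a block and leaving out each library were alternatives. The members and lists were chosen with earlier results of these data known. The genes named were all 33 members, examples from the other lists and the 10 nearest profiles. Examples such as Rfx5, Csf1, Trem2 and P2ry12 were chosen after their values were seen.

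Replicate numbers come from the titles, the design text speaks of independent sets, and 4 of the 5 sets share a run label (Sox17 set 1 has no such label). The set number therefore entered as a block in 1 alternative, and the main test has no block. Over genes, deviations from the group means correlated at 0.21 in the Sox7 arm and at 0.0604, 0.057 and 0.043 in Sox17 sets 1, 2 and 3. With 2 libraries per group both Sox7 sets must give the same value, so the arm holds 1 such value.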

Additional observations from a re-analysis of the deposited data

How the results depend on the processing

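For Sox7 ECKO against Sox7 control, the count of genes past the threshold was 0, and 1 with the replicate block, 3 with DESeq2 and 58 without a filter; of the 33 genes, 1 passed with the block and 15 without a filter. For Sox17 ECKO against Sox17 control the count was 0, and 6 with the block, 29 with DESeq2 and 30 without a filter; of the 33, 2, 1 and 3 passed. The block changed no other call. Leaving out each library in turn gave 0 to 14 genes in the Sox7 comparison (14 without Sox7 ECKO 1, 3 without Sox7 control 1) and 0 to 1 in the Sox17 comparison (1 without Sox17 ECKO 3), and 0 of the 33 in both. The median log2 fold change of the 33 ran from −1.77 to 4.24 in the Sox7 comparison (3.25 with all libraries, 1.67 with the block, 1.54 with limma-voom) and from −1.45 to 0.27 in the Sox17 comparison (−0.59), where Sox17 libraries alone left 28 of the 33 tested. In the Sox7 comparison it was lowest without Sox7 ECKO 1 and highest without Sox7 ECKO 2. In the Sox17 comparison it was −0.22 without Sox17 ECKO 1, −1.45 without Sox17 ECKO 2, −1.09 without Sox17 control 1 and 0.27 without Sox17 control 2.

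Ranges over left-out libraries crossed 0 in the Sox7 comparison for C1qa (−2.66 to 5.63), Csf1r (−1.22 to 5.37), Ms4a6c (−0.52 to 11.3, the upper end against 1 count in Sox7 control 2), Lcp1 (−1.01 to 1.77) and Cd74 (−0.40 to 3.02). They crossed 0 in the Sox17 comparison for C1qa (−1.86 to 0.58), Csf1r (−0.61 to 1.16), Lcp1 (−0.057 to 0.44), H2-Eb1 (−0.19 to 0.59) and Cd74 (−0.32 to 0.27). Sox17 Csf1r was also at 0.49 with the block and 0.37 with limma-voom, and Sox17 Cd74 at 0.17 with limma-voom. The cause was not tested. Summed CPM per library kept its order of magnitude per total count (21478 in Sox7 ECKO 1 against 1832 in Sox7 control 1) and without Rn45s (32904 against 2406).

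Depth limits genes at or under 3 counts, which were 18 and 24 of the 33 in Sox17 ECKO 1 and Sox17 control 1.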

Other observations

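The Sox17 files also list microRNA gene rows. Mir142 and Mir223, known from myeloid cells, had no count in any of the 6 Sox17 libraries, and Mir155 had 6 counts, all in Sox17 control 3. A kit that reads polyadenylated transcripts does not count mature microRNAs.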
